A study of Mus musculus with 24 samples.

Results

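The transcripts of 9 serotonin receptor genes, *Htr1a*, *Htr1b*, *Htr1d*, *Htr1f*, *Htr2a*, *Htr3a*, *Htr4*, *Htr6* and *Htr7*, were followed in the nucleus accumbens (NAc), the ventral part of the striatum, of stressed and unstressed mice of both sexes. They were picked by symbol from a table of 38293 Ensembl genes, and all 9 were among the 18593 genes with enough reads to be tested. The mice were C57BL/6J, 9 weeks old by their labels, and carried no transgene. Unstressed males (NSM), stressed males (SM), unstressed females (NSF) and stressed females (SF) each contributed 3 mRNA libraries, named by group and replicate number (NSM1 to NSM3 and so on). Stressed mice had received Subchronic Variable Stress (SCVS), in which foot shock, tail suspension and restraint alternate from day to day, and tissue was taken on the day after the last stressor. Females were sampled in estrus or proestrus, and each library was a pool of 10 NAc punches from 5 mice, so that the values describe pools and p values measure the spread between pools. Because whole punches were homogenized, fewer cells of a type and less RNA per cell cannot be told apart.

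Serotonin reaches the NAc in axons of raphe neurons and acts there on receptors of several families. The Htr1 family couples to inhibitory G proteins that lower cyclic AMP, Htr2a couples to Gq and phospholipase C, Htr4, Htr6 and Htr7 couple to stimulatory G proteins that raise cyclic AMP, and Htr3a forms a cation channel that opens when serotonin binds. In the striatum these receptors sit on projection neurons, on interneurons and on incoming axons, and an mRNA measurement of the tissue sees only the cells whose bodies lie in the punch.

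All members other than *Htr3a* belong to the rhodopsin-like class, and the coding sequence of each holds codons for the Asp-Arg-Tyr motif at the inner end of the third membrane helix, where G proteins engage. The stretches of 57 coding bases around these codons are printed from the GENCODE transcripts of NCBIM37, with the 9 bases of the motif in capitals. They show how close 7 of the members are at this motif, and the stretch of *Htr4* is not reported here. Identical runs over whole transcripts, given after them, bear on whether reads of one gene could be counted on another.
Htr1a: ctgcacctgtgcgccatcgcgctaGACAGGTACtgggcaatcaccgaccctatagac
Htr1b: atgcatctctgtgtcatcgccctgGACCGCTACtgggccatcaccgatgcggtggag
Htr1d: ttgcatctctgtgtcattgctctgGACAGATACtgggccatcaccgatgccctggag
Htr1f: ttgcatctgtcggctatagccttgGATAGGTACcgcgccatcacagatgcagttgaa
Htr2a: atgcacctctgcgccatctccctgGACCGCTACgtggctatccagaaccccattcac
Htr6: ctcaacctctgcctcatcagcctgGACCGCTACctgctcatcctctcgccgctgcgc
Htr7: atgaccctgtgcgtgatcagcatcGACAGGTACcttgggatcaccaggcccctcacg
*Htr1b* and *Htr1d* shared 50 of the 57 bases, more than any other pair of these 7, and *Htr1f* and *Htr6* shared 23, the fewest. Over whole transcripts the longest identical run between any pair of the 9 members was 20 bases, again between *Htr1b* and *Htr1d*, which is shorter than the reads of 50 bases. In *Htr3a* no Asp-Arg-Tyr codons were found. *Htr1b* is uncertain for another reason. Its annotation covers 1273 bases in 1 exon on the minus strand of chromosome 9 (chr9:81524950-81526222, NCBIM37), and 852 of them overlap exons of D430036J16Rik on the opposite strand. The library kit does not mark strand, and the strand setting of the counting was not given in the sources used here, so reads of both genes cannot be told apart.

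Between 41076780 and 60867747 reads were counted on genes per library, and the 9 members had between 89 and 1211 reads each in every library. The labelled tissue was checked by the dopamine receptor transcripts of striatal projection neurons, and *Drd1a* lay between 272 and 383 CPM (read counts per library size, scaled by TMM factors) and *Drd2* between 130 and 160 CPM in all libraries. Transcripts of cortical glutamatergic neurons, in contrast, varied widely. *Slc17a7*, the vesicular glutamate transporter of cortical neurons, exceeded 100 CPM in 4 libraries, SM2, SM3, NSF1 and NSF3, and lay between 4.02 and 93.2 CPM in the other 8. The sum over 8 such markers, among them *Slc17a7*, *Neurod6*, *Tbr1* and *Emx1*, none of which was at 0 in any library, ranged from 24.4 to 39.9 CPM in NSM, 68.7 to 228 CPM in SM, 40.6 to 398 CPM in NSF and 63.2 to 141 CPM in SF. The NSM and SM ranges of this sum did not overlap. *Rorb*, another of the 8, varied little, at 14.7 to 20.3 CPM over the 12 libraries, and so weighs most in the lowest sums. The mean log2 CPM of these 8 genes is called the cortical marker mean here and is used below as a covariate.

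Receptor levels were compared between genes per kilobase of exon, as CPM per kb, with the mean and SD over the 12 libraries. *Htr2a* stood highest at 7.28 ± 0.82 CPM per kb (SD, n = 12), and *Htr1b* followed at 4.86 ± 0.71, *Htr1d* at 4.42 ± 0.47, *Htr6* at 3.24 ± 0.55 and *Htr4* at 2.81 ± 0.85. *Htr1a* had 2.14 ± 0.43 CPM per kb, *Htr1f* 1.65 ± 0.21, *Htr7* 1.57 ± 0.35 and *Htr3a* 1.08 ± 0.11. The step from *Htr2a* to *Htr1b* was the only one between neighbors in this order without overlap, with *Htr2a* above *Htr1b* in 12 of 12 libraries. The place of *Htr1b* is uncertain, since 852 of its 1273 exon bases overlap D430036J16Rik and reads there may have been lost or gained in counting. *Htr1b* exceeded *Htr1d* in 9 libraries, *Htr1d* exceeded *Htr6* in 11, *Htr6* exceeded *Htr4* in 8, *Htr4* exceeded *Htr1a* in 9, *Htr1a* exceeded *Htr1f* in 10, *Htr1f* exceeded *Htr7* in 8 and *Htr7* exceeded *Htr3a* in 11, and in each of these pairs the ranges overlapped. With the longest transcript as the length, *Htr1d* stood at 4.87 CPM per kb, level with *Htr1b*. The most abundant serotonin receptor of the tissue was no member: *Htr2c*, also Gq-coupled, had between 21.0 and 24.6 CPM per kb as group means. Of the remaining receptors *Htr5a* had group means of 1.81 to 2.14 CPM per kb, whereas *Htr2b*, *Htr3b* and *Htr5b* had group means of at most 0.31 CPM per kb.

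**Figure D1:**
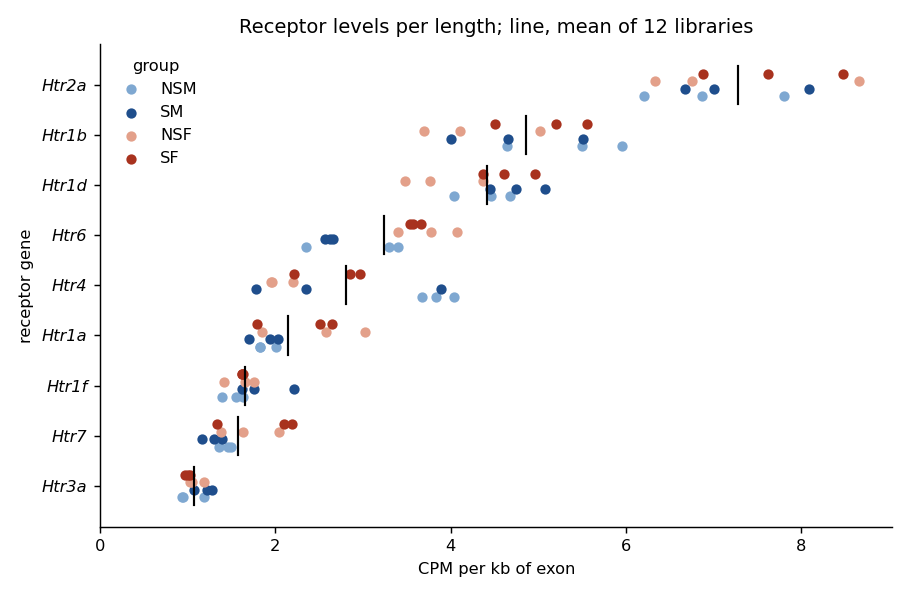
Level of each receptor gene in CPM per kb of exon (horizontal axis) in 12 libraries, with 1 point per library colored by group and a line at the mean. As counted, *Htr2a* lies above all other members in each library, and *Htr3a* is lowest by its mean of 1.08 CPM per kb. The level of *Htr1b* is uncertain because its exon overlaps another gene.

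The members also differed in how far they varied. Between the lowest and highest library *Htr4* spanned a 2.27-fold range, from 8.29 to 18.8 CPM, the widest of the 9, followed by *Htr7* with 1.88-fold and *Htr1a* with 1.78-fold. *Htr3a*, *Htr2a* and *Htr1d* spanned 1.36-fold, 1.39-fold and 1.46-fold. *Htr4* was the most variable member within groups as well, with an SD of 0.31 on the log2 CPM scale around the group means, compared with 0.12 for *Htr1d*.

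**Figure D2:**
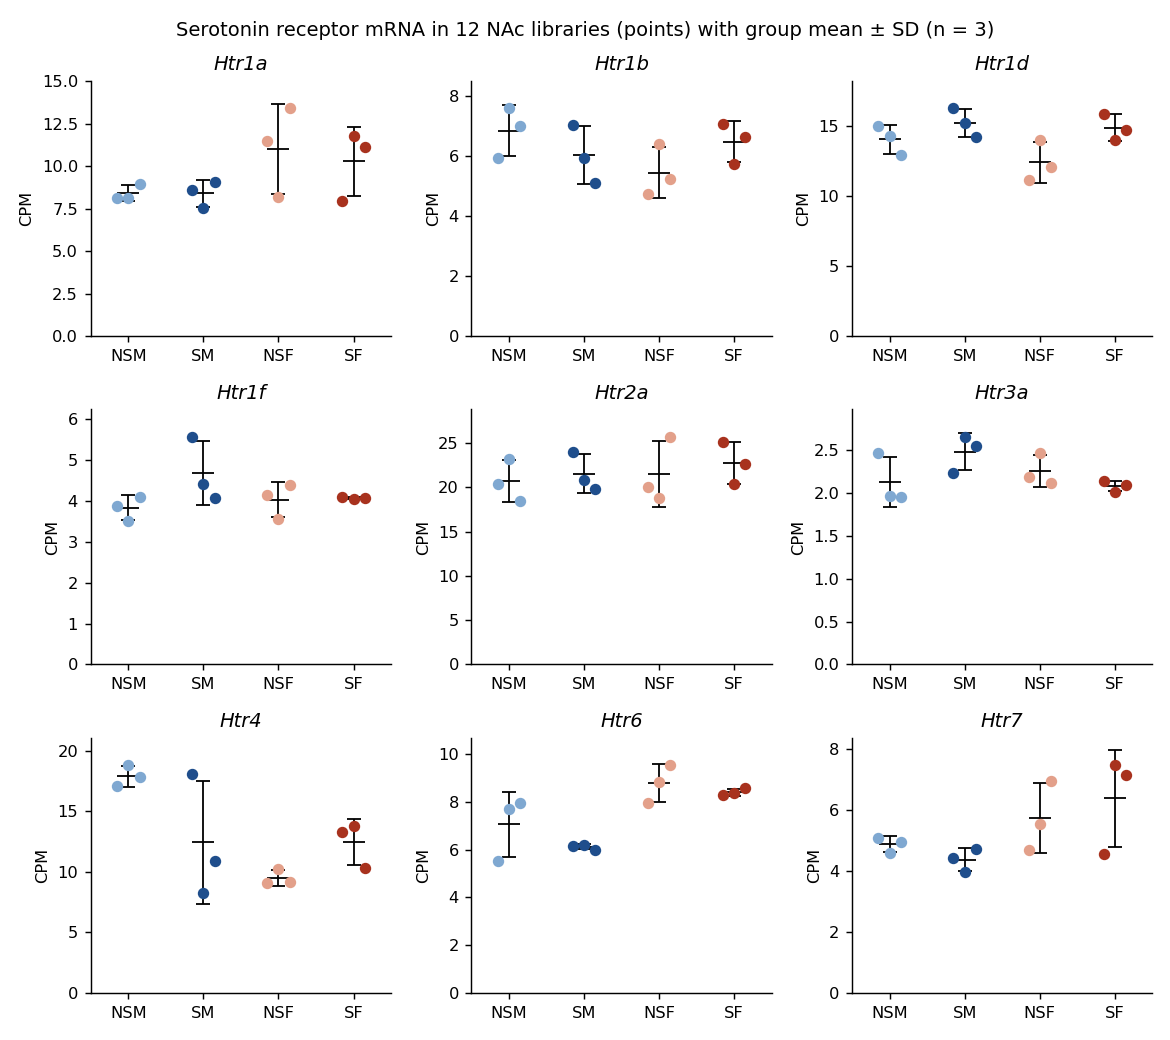
CPM of each receptor (vertical axis, from 0) in the 3 libraries of each group (points), with the group mean and SD as bars. The unstressed male libraries of *Htr4* lie between 17.1 and 18.8 CPM, above the unstressed female libraries between 9.08 and 10.2 CPM.

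To ask which receptors responded to SCVS in males, SM libraries were compared with NSM libraries. *Htr4*, the Gs-coupled receptor known for its role in feeding and mood in rodents, was the 1 of 9 members called, and it was lower in SM. A call required both an unadjusted limma p under 0.05 and a change of 1.3-fold or more. The same thresholds called 6.44% of all tested genes in this comparison. *Htr4* (ENSMUSG00000026322) spans chr18:62483858-62627456 on the plus strand of NCBIM37, with 4657 bases of exon in 7 blocks. It had 17.1, 18.8 and 17.8 CPM in the 3 NSM libraries. In SM it had 18.1, 8.29 and 10.9 CPM. SM1 thus lay inside the NSM range and the other SM libraries lay below it, so that the groups overlapped. This gave a log2 fold change of -0.62 (standard error, SE, of 0.19, 95% interval -1.02 to -0.22, unadjusted p = 0.00489, adjusted p = 0.0843 over all tested genes, limma), and 5.79% of tested genes had a smaller p.

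The low SM libraries were those rich in cortical markers. *Slc17a7* had 39.5 CPM in SM1 and 119 and 162 CPM in the others, against 4.02 to 16.4 CPM in NSM, and 3 of the 8 cortical markers were called higher in males by limma, 7 by edgeR and 7 by DESeq2. With the cortical marker mean as a covariate the log2 fold change of *Htr4* was -0.19 (SE 0.22, unadjusted p = 0.421, limma), and it was no longer called. Without SM2 it was -0.36 (unadjusted p = 0.0498, limma) and fell short of the fold threshold. When the 4 libraries above 100 CPM of *Slc17a7* were left out, a choice made after the data were seen, it was 0.02. That fit keeps 1 SM and 1 NSF library, which are assumed to vary like the other groups. Since SM and NSM did not overlap in the cortical marker mean, stress and cortical marker level cannot be told apart in males. Of 7 genes listed as cortical interneuron markers *Cck* and *Cnr1* were called higher in males and *Calb2* lower. *Cnr1* had 84.6 to 87.1 CPM in NSM, where *Slc17a7* had 4.02 to 16.4 CPM, so this list need not mark cortical interneurons here. Of 12 striatal projection neuron markers 11 had log2 fold changes above 0, with a median of 0.12 and none called (3 at an unadjusted p under 0.05). All 5 of 5 tested choroid plexus markers were below 0, none called (1 at an unadjusted p under 0.05). These counts are from limma, and edgeR and DESeq2 called 0 of the projection neuron markers and 1 choroid plexus marker, lower. With the cortical marker mean in the model limma called 2 projection neuron markers higher in males, with a list median of 0.25. In that fit 1 cortical interneuron marker was called higher and 2 lower, and 0 choroid plexus markers were called. The part of these lists in the *Htr4* result was not tested.

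None of the other 8 members was called in males. *Htr1f*, an inhibitory receptor and the target of the migraine drug lasmiditan, had 3.88, 3.495 and 4.10 CPM in NSM and 5.56, 4.40 and 4.08 CPM in SM. These groups overlapped at 4.08 to 4.10 CPM, and the log2 fold change of 0.27 (SE 0.12, unadjusted p = 0.0456, adjusted p = 0.223, limma) was under the fold threshold. *Htr1f* was called higher with library quality weights (0.41, unadjusted p = 0.00347, limma) and without the 4 libraries above 100 CPM of *Slc17a7* (0.54, unadjusted p = 0.00315, limma), where SM1, its highest SM library, was the only one left of its group. It was 0.19 with the cortical marker mean in the model (unadjusted p = 0.285, limma). *Htr3a* had 2.47, 1.97 and 1.95 CPM in NSM and 2.24, 2.66 and 2.55 CPM in SM, a log2 fold change of 0.22 (95% interval -0.05 to 0.50). *Htr1a*, the somatodendritic autoreceptor of raphe neurons and a postsynaptic receptor elsewhere, had 8.12 to 8.94 CPM in NSM and 7.53 to 9.04 CPM in SM, a log2 fold change of -0.005 (95% interval -0.40 to 0.39). For *Htr2a*, the Gq-coupled target of classical psychedelics, the interval was -0.20 to 0.32 around 0.06. For *Htr1d*, a presynaptic inhibitory receptor, it was -0.08 to 0.30 around 0.11. *Htr1b*, an inhibitory receptor of axon terminals made by striatal projection neurons, had -0.19 (-0.49 to 0.11), *Htr6*, a Gs-coupled receptor concentrated in striatum, -0.18 (-0.45 to 0.10), and *Htr7*, also coupled to Gs, -0.16 (-0.57 to 0.24). In CPM the NSM and SM libraries overlapped for all 9 members, while 23.0% of all tested genes showed no overlap.

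In females the question was whether SCVS changed the receptors relative to unstressed controls in the same cycle stages. None of the 9 members was called with limma, where 1.73% of all tested genes were, and 1 member, *Htr1d*, had an unadjusted p under 0.05. With edgeR and with DESeq2 none was called either. *Htr1d* had 11.1, 14.0 and 12.1 CPM in NSF and 15.9, 14.01 and 14.7 CPM in SF. All SF libraries lay above all NSF libraries, although the closest ones were nearly equal. This gave a log2 fold change of 0.25 (SE 0.09, unadjusted p = 0.0140, adjusted p = 0.948, limma), a change of less than 1.3-fold.

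*Htr4* was the other member without overlap in females. It had 9.08, 10.2 and 9.13 CPM in NSF and 13.3, 13.8 and 10.3 CPM in SF. Each SF library was above each NSF library, by little in the case of SF3. This gave a log2 fold change of 0.38 (SE 0.20, 95% interval -0.05 to 0.81, unadjusted p = 0.0783, adjusted p = 0.948, limma) and did not meet the thresholds. Groups of females did not overlap for 2 of the 9 members and for 11.3% of all tested genes. *Htr4* was called in females when only the 6 female libraries were fitted, and without SM1, SM2 or SF3, with log2 fold changes of 0.38 to 0.51. The cortical markers had log2 fold changes below 0 for 8 of 8 genes in females, of which limma called none (0 at an unadjusted p under 0.05), edgeR 4 and DESeq2 2. With the cortical marker mean in the model *Htr4* had a log2 fold change of 0.26 in females (unadjusted p = 0.167, limma).

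The intervals of the remaining 7 members included 0 in females. *Htr1b* had a log2 fold change of 0.23 (95% interval -0.07 to 0.54), *Htr7* 0.14 (-0.22 to 0.50), *Htr2a* 0.09 (-0.16 to 0.35) and *Htr1f* 0.03 (-0.23 to 0.30). *Htr1a* had -0.06 (-0.42 to 0.30), *Htr6* -0.06 (-0.31 to 0.18) and *Htr3a* -0.13 (-0.40 to 0.15). The *Htr1f* libraries of SF were nearly equal, at 4.05 to 4.09 CPM. *Htr7* and *Htr1a* varied more within the female groups than within the male groups. *Htr7* ranged from 4.53 to 7.45 CPM in SF and from 3.96 to 4.72 CPM in SM, and *Htr1a* from 8.18 to 13.4 CPM in NSF and from 8.12 to 8.94 CPM in NSM. This difference in spread was not tested.

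**Figure D3:**
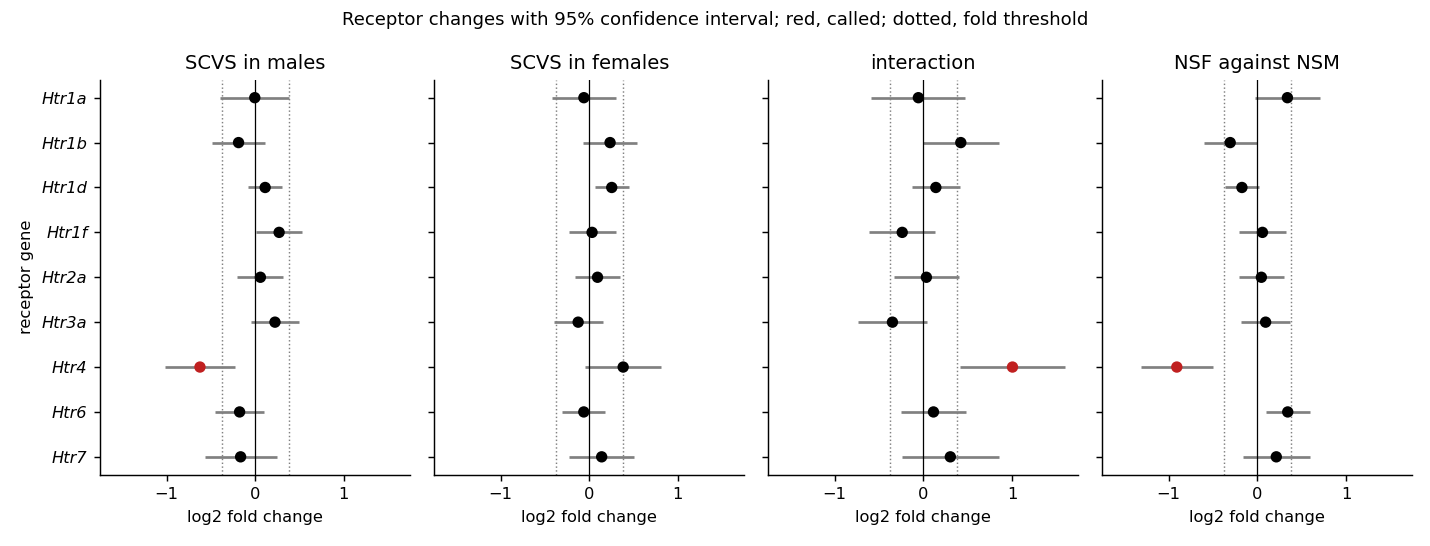
Log2 fold change of each receptor (horizontal axis) with its 95% confidence interval from limma in 4 comparisons, dotted lines at a 1.3-fold change and called values in red. *Htr4* is the only red member, at -0.62 for SCVS in males, 1.01 for the interaction and -0.91 for NSF against NSM.

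Whether SCVS acted differently in the sexes was tested by the interaction, the female log2 fold change minus the male one. *Htr4* was 1 of 9 members called, with 4.42% of all tested genes called. Its interaction was 1.01 (SE 0.27, 95% interval 0.42 to 1.59, unadjusted p = 0.00259, adjusted p = 0.252, limma), from the male value of -0.62 and the female value of 0.38, and 1.02% of tested genes had a smaller p. It was 0.44 (unadjusted p = 0.186, limma) with the cortical marker mean in the model, and 0.27 (unadjusted p = 0.228, limma) without the 4 libraries above 100 CPM of *Slc17a7*, with SM and NSF at 1 library each. Of the 8 cortical markers 7 were called in this comparison, all negative, which is opposite to *Htr4*. The nearest other members were *Htr1b* with 0.42 (95% interval -0.01 to 0.85, unadjusted p = 0.0533, limma) and *Htr3a* with -0.35 (-0.74 to 0.04, unadjusted p = 0.0767, limma). *Htr1b* was called in 7 of 24 alternative fits, among them DESeq2's Wald test (0.42) and scaling by library size (0.45). Its interaction was 0.015 with the cortical marker mean in the model (unadjusted p = 0.949, limma), and without the 4 libraries it was -0.039. *Htr1b* had 5.91, 7.58 and 7.002 CPM in NSM, 7.02, 5.93 and 5.10 CPM in SM, 4.71, 6.38 and 5.22 CPM in NSF and 7.07, 5.73 and 6.62 CPM in SF. All 4 groups overlapped. The other 6 members lay between -0.24 (*Htr1f*) and 0.30 (*Htr7*).

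Among unstressed mice, *Htr4* was lower in females than in males. It was the 1 of 9 members called in the comparison of NSF with NSM, in which 5.31% of all tested genes were called. The 3 NSF libraries, at 9.08 to 10.2 CPM, lay well below the 3 NSM libraries at 17.1 to 18.8 CPM. This gave a log2 fold change of -0.91 (SE 0.19, 95% interval -1.32 to -0.50, unadjusted p = 0.000299, adjusted p = 0.0672, limma), and 0.436% of tested genes had a smaller p. The NSM libraries enter this comparison as well as that of SCVS in males, and the NSF libraries that in females, so the values are not independent of each other. Under stress the sexes overlapped, with 8.29 to 18.1 CPM in SM and 10.3 to 13.8 CPM in SF.

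NSF1 and NSF3 were rich in cortical markers, with 209 and 297 CPM of *Slc17a7*, and 5 of the 8 markers were called higher in NSF by limma, 7 by edgeR and 7 by DESeq2. Of 7 genes listed as cortical interneuron markers 2 were called higher in NSF, and of 7 tested septal and hypothalamic markers 4 (*Zic1*, *Zic2*, *Zic4* and *Slc17a6*). All 5 of 5 tested choroid plexus markers were below 0, with a median of -0.40 (1 at an unadjusted p under 0.05, limma). Limma called 0 of them, and edgeR and DESeq2 each called 1, lower. The part of these lists in the receptor results was not tested. The cortical marker mean was at most 0.74 in NSM and at least 0.94 in NSF, so that sex and marker level cannot be told apart in this comparison either. NSF2 and NSM3, the closest libraries of these groups, each had 16.4 CPM of *Slc17a7*, and they had 10.2 and 17.8 CPM of *Htr4*. With the cortical marker mean in the model the log2 fold change of *Htr4* was -0.49 (unadjusted p = 0.0556, limma) and it was not called. Without the 4 libraries above 100 CPM of *Slc17a7* it was -0.81 and called, with NSF2 as the only one of its group, so that the spread came from the other groups. SF1, SF2 and SM1 were close in *Slc17a7*, at 37.0, 34.5 and 39.5 CPM, and had 13.3, 13.8 and 18.1 CPM of *Htr4*. These single libraries were picked by their *Slc17a7* values, and the differences between them were not tested.

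*Htr6* was the other member whose unstressed groups did not overlap, and it was higher in females. It had 5.51, 7.72 and 7.949 CPM in NSM and 7.958, 8.84 and 9.54 CPM in NSF, groups that touched. This gave a log2 fold change of 0.34 (SE 0.12, unadjusted p = 0.0106, adjusted p = 0.184, limma), under the fold threshold. Non-overlap of NSM and NSF was found for 2 of 9 members and for 19.5% of all tested genes. After stress *Htr6* had 6.00 to 6.21 CPM in SM and 8.28 to 8.56 CPM in SF, and *Htr3a* had 2.24 to 2.66 CPM in SM and 2.01 to 2.14 CPM in SF, again 2 of 9 members without overlap, compared with 20.4% of all tested genes. The sex difference under stress was not tested. *Htr1b* had a log2 fold change of -0.31 (unadjusted p = 0.0452, adjusted p = 0.313, limma) between NSF and NSM, and *Htr1a* 0.34 (95% interval -0.03 to 0.70). edgeR (0.39) and DESeq2 (0.38) called *Htr1a* higher in NSF. In the fit with the cortical marker mean *Htr1b* was at 0.00089 and *Htr1a* at -0.069 (unadjusted p = 0.725, limma), and without the 4 libraries above 100 CPM of *Slc17a7* *Htr1b* was at -0.088 and *Htr1a* at -0.039. It had 8.12, 8.13 and 8.94 CPM in NSM and 11.5, 8.18 and 13.4 CPM in NSF, and the high libraries were again NSF1 and NSF3. The other 4 members lay between -0.17 (*Htr1d*) and 0.21 (*Htr7*).

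Over the 12 libraries each member was correlated with the cortical marker mean, a family of 9 relations with p values from 100000 permutations, two-sided. The permutations over the 12 libraries ignored the groups. These relations therefore also hold differences between groups, such as the low marker mean of NSM. *Htr4* was lower where the marker mean was higher (Pearson r = -0.82, permutation p = 0.00198, adjusted p = 0.0178, and Spearman rho = -0.76, permutation p = 0.00554, adjusted p = 0.0499). *Htr1b* did so too by Pearson's r (r = -0.74, permutation p = 0.00646, adjusted p = 0.0291), while its rho of -0.62 (permutation p = 0.0366) had an adjusted p of 0.110. Without the 2 libraries farthest from the median of the marker mean, NSM2 and NSF3, r was -0.76 for *Htr4* (permutation p = 0.0170, adjusted p = 0.153) and -0.61 for *Htr1b* (permutation p = 0.0621, adjusted p = 0.279), so that neither passed after adjustment. Within groups, as deviations from the group means, r was -0.72 for *Htr1d* (permutation p = 0.00862, adjusted p = 0.0724), -0.65 for *Htr1b* (permutation p = 0.0230, adjusted p = 0.0724), -0.61 for *Htr4* (permutation p = 0.0367, adjusted p = 0.0826) and 0.65 for *Htr1a* (permutation p = 0.0241, adjusted p = 0.0724), so that no member passed after adjustment. These permutations treated the 12 deviations as independent across groups, although the group means had been removed, so the within-group p values are too small. Over all 12 libraries r was -0.42 for *Htr1d*. None of the other 7 members had an adjusted p under 0.05 for either coefficient over the 12 libraries. *Htr1a* had the largest positive r (0.57, permutation p = 0.0521, adjusted p = 0.156, with rho = 0.45, permutation p = 0.149, adjusted p = 0.335) and *Htr1f* the largest positive rho (0.64, permutation p = 0.0295, adjusted p = 0.110, with r = 0.39, permutation p = 0.210, adjusted p = 0.377).

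**Figure D4:**
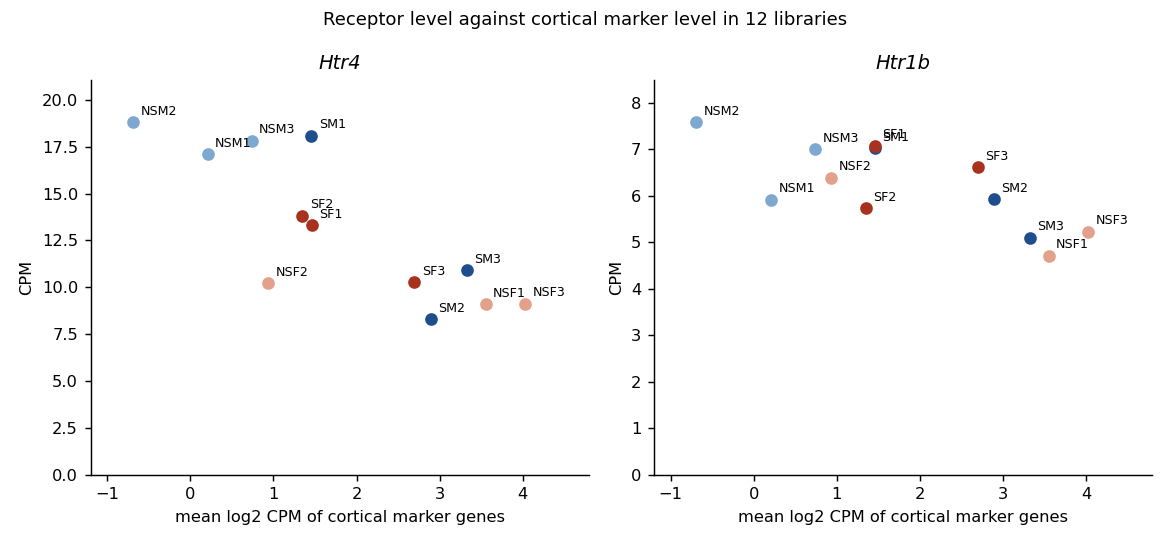
CPM of *Htr4* and *Htr1b* (vertical axes, from 0) against the mean log2 CPM of 8 cortical marker genes (horizontal axis) in 12 libraries, labelled and colored by group. *Htr4* is at 17.1 CPM or above in the 3 NSM libraries and SM1, and NSF2 lies at 10.2 CPM with a marker mean of 0.94.

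Among themselves the members did not move as 1 group. As a description over the 12 libraries, which share depth and tissue composition, the Pearson r of log2 CPM was highest between *Htr1a* and *Htr7* (0.77), *Htr1b* and *Htr4* (0.65), *Htr1b* and *Htr1d* (0.62) and *Htr6* and *Htr7* (0.61), and lowest between *Htr1a* and *Htr1d* (-0.66) and between *Htr3a* and *Htr6* (-0.61). *Htr2a* had no r above 0.37 with another member. Among 14083 other tested genes with a symbol and a mean of at least 1 CPM, the 3 with the pattern most like *Htr4* over the 12 libraries were *Adra2b* (r = 0.96), *Zfp449* (0.94) and *Gm5607* (0.94). *Adra2b* had log2 fold changes of -0.50 in males and 0.33 in females. For *Htr1a* they were *Vsnl1*, *Chga* and *Ckap4* (r = 0.96 each), for *Htr7* *Gnas* (0.96), *Kcnc1* and *Pcdh20* (0.95 each), and for *Htr6* *Atg9a*, *Zbtb7a* and *Pold1* (0.96 each). For *Htr1d* they were *Ubac2* (0.94), *Frs2* and *Slc30a6* (0.93 each), for *Htr1b* *Ipo8* (0.90), *Ptcd1* and *Gzf1* (0.88 each), and for *Htr1f* *Usp25* (0.90), 7SK (0.88) and *Rnf182* (0.86). The nearest genes were less close for *Htr3a*, with *Mosc2* (0.87), *Tfb1m* and *Lias* (0.86 each), and for *Htr2a*, with *Fbxo28* (0.87), *Luzp1* and *Rpa3* (0.82 each). *Gnas*, named for *Htr7*, had group means of only 12.6 to 18.9 CPM, and whether its count holds all transcripts of that gene was not tested.

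The genes around the receptors were described from lists of the same pathway. Of the 5 other serotonin receptors 4 were tested. *Htr5b* was called lower in males (log2 fold change -0.83, adjusted p = 0.195, limma) and *Htr2b* lower in females (-1.02, adjusted p = 0.948, limma), with means of only 24.6 and 8.58 reads. Of 13 genes of serotonin synthesis, transport and breakdown 10 were tested and none was called by limma, edgeR or DESeq2 in any of the 4 comparisons. With limma 3, 0, 1 and 2 of them had an unadjusted p under 0.05 for males, females, the interaction and NSF against NSM. When the cortical marker mean was added as a covariate, limma called 1 of them in males, higher, and 0 in the other comparisons. The serotonin transporter *Slc6a4* had 1 to 11 reads per library, the neuronal tryptophan hydroxylase *Tph2* 11 to 27 and the raphe transcription factor *Fev* 0 to 1, whereas *Maoa*, which breaks serotonin down, had 33.9 to 41.0 CPM. Without the covariate the low-affinity transporter *Slc22a3* came closest to the thresholds, with 5.04 ± 0.06 CPM in NSM and 6.38 ± 0.43 CPM in SM (SD over 3 libraries). Its log2 fold change in males was 0.34 (unadjusted p = 0.00280, adjusted p = 0.0659, limma). Its fold change was 1.27.

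Downstream of the receptors 21 genes for G proteins, adenylyl cyclases, phospholipases and G protein-gated potassium channels were tested. In males 2 were called, both higher, in females none (0 at an unadjusted p under 0.05 with limma, and 1 called with edgeR and with DESeq2), in the interaction 2, both negative, and in NSF against NSM 3, all higher. *Adcy1*, an adenylyl cyclase, had 197 to 216 CPM in NSM and 265 to 294 CPM in SM. Its log2 fold change was 0.46 in males (adjusted p = 0.0245, limma) and 0.51 in NSF against NSM (adjusted p = 0.0456, limma). *Kcnj3*, a subunit of the potassium channels that Htr1 receptors open, had 0.42 in males (adjusted p = 0.207, limma) and 0.54 in NSF against NSM (adjusted p = 0.171, limma), and *Kcnj6*, another subunit, 1.02 in NSF against NSM (adjusted p = 0.186, limma). None of these calls was made with the cortical marker mean in the model: *Adcy1* had 0.18 in males and 0.21 in NSF against NSM, *Kcnj3* -0.12 and -0.03, and *Kcnj6* -0.02 in NSF against NSM. In that fit the list had 2 genes called lower in males, *Kcnj6* (-0.81) and *Adcy8* (-0.48), another adenylyl cyclase, and none in the interaction or in NSF against NSM. Without the 4 libraries above 100 CPM of *Slc17a7* none of the 21 was called in any comparison. Of 13 receptor partner proteins *Rgs4*, a regulator of G protein signaling, was called higher in males (0.42, adjusted p = 0.0598, limma), also with the cortical marker mean in the model (0.65), where its interaction was called too (-0.57). Without that term no partner was called in the other comparisons by limma, edgeR or DESeq2, with 0, 0 and 3 at an unadjusted limma p under 0.05 in females, the interaction and NSF against NSM. The median log2 fold change of the 9 receptors was -0.005 in males (0.01 with DESeq2) and 0.09 in females, compared with -0.01 and -0.004 over all tested genes. In the reported limma fit no receptor had an adjusted p under 0.05 in any of the 4 comparisons. An unadjusted p under 0.05 was found for 2, 1, 1 and 3 receptors. Of all tested genes 618, 0, 5 and 53 had an adjusted p under 0.05 in that fit.

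**Figure D5:**
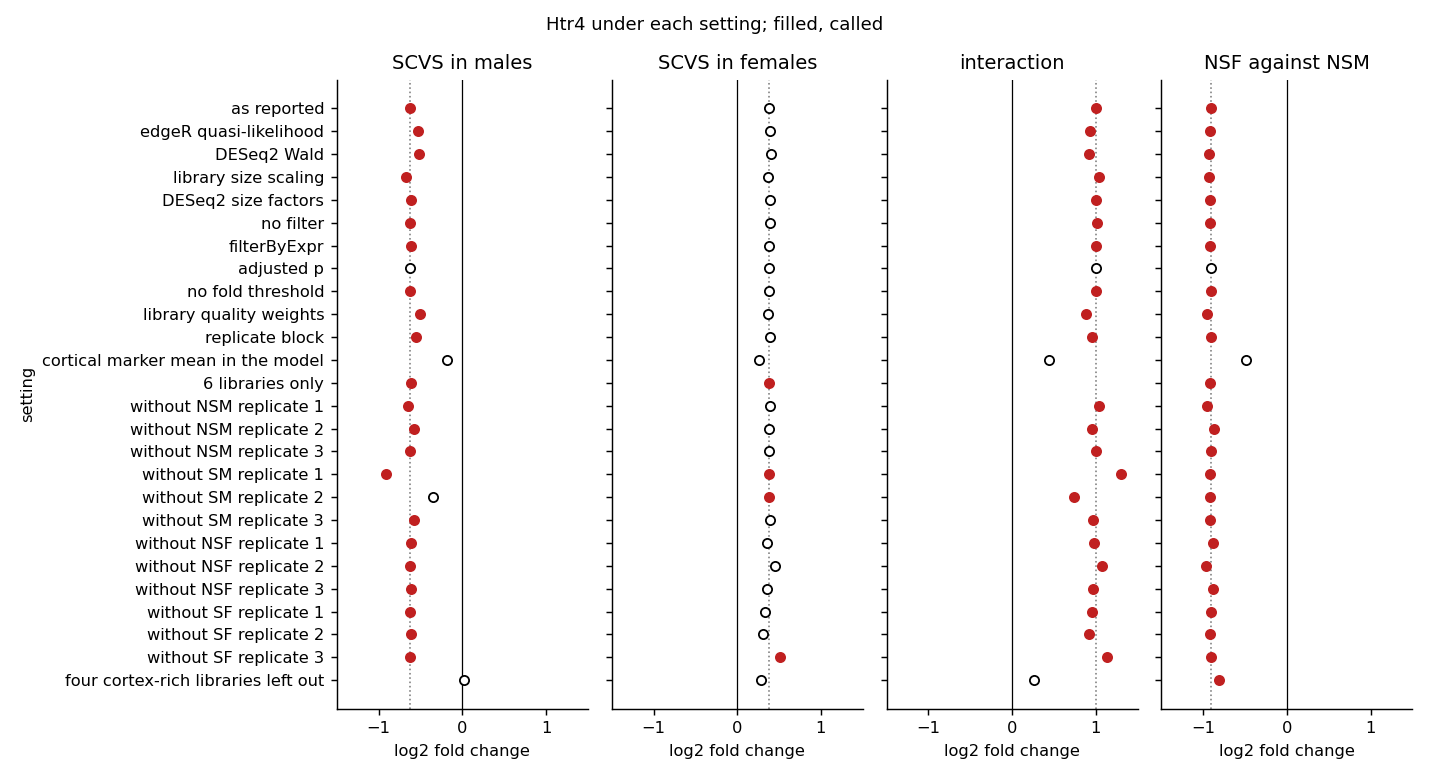
Log2 fold change of *Htr4* (horizontal axis) in 4 comparisons under the reported fit and each alternative (vertical axis), filled where called and open where not, with a dotted line at the reported value. The male value moves from -0.62 to -0.19 with the cortical marker mean in the model and to 0.02 without the 4 libraries above 100 CPM of *Slc17a7*, and NSF against NSM stays at -0.49 or below in every fit shown.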

How the data were processed

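RNA-Seq libraries of pooled NAc punches were assigned to sex, stress condition and replicate number from their labels, and no library was left out. The authors aligned paired reads of 50 bases to NCBIM37 (Ensembl version 67) with TopHat2, obtained gene counts with HTSeq and deposited these raw counts without normalization. Small RNA counts were not used here. The depth was 41076780 to 60867747 reads per library, and a member's lowest count was 89 reads.

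Genes were kept when over 5 reads were found in 80% or more of the libraries of a group (18593 of 38293), scaled by TMM and compared with voom and limma 3.58.1 (R 4.3.3, edgeR 4.0.16), with 1 mean per group over all 12 libraries. As in the study, calling a gene required a 1.3-fold change or more together with an unadjusted p under 0.05. Benjamini-Hochberg adjustment ran over all tested genes, or over the 9 receptors for correlations across libraries (Python 3.11.15, numpy 2.4.6). Exact permutation with 3 against 3 pools cannot go below 0.1. Symbols, exon lengths and coding sequences came from GENCODE for NCBIM37, which held 33789 of the identifiers, an older release than the one counted. The fits were tested on simulated data. The pools of each group differed by more than sampling noise.

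Named genes were all members, the other receptors and serotonin genes, the called genes of the G protein and partner lists, and the 3 nearest patterns per member. The members, gene lists and tests were chosen with earlier results of these data known. Alternatives included DESeq2 1.42.0, the quasi-likelihood test of edgeR, other scalings, filters and call rules, library quality weights, replicate blocks, the cortical marker mean as covariate, fits of 6 libraries, and fits without 1 library or, added after the data were seen, without 4. Not every cortical marker that enters the sums and counts is reported here by name.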

Additional observations from a re-analysis of the deposited data

Results flagged for a closer look

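*Htr4* was flagged because its interaction, the female minus the male log2 fold change, had an unadjusted p under 0.05 with limma. Its log2 interaction was 1.01 (SE 0.27, unadjusted p = 0.00259, limma), its adjusted p over all tested genes was 0.252, and it was the only 1 of the 9 receptors with an unadjusted p under 0.05. In males 2 of 3 stressed libraries lay below all unstressed libraries, and in females 3 of 3 stressed libraries lay above all unstressed ones. The cortical marker mean moved in the opposite direction in the same comparison, and with it in the model the interaction of *Htr4* was 0.44 (adjusted p = 0.904, limma).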

How the results depend on the processing

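The number of called receptors was 1 for SCVS in males, 0 for females, 1 for the interaction and 1 for NSF against NSM. By adjusted p of the same limma fit it was 0 in all 4 comparisons. With the replicate number as a block *Htr4* had an adjusted p of 0.0234 in NSF against NSM (limma). Some other alternative fits gave *Htr4* a smaller unadjusted p there than the reported fit, and receptors passing adjustment in those fits were not counted. With the cortical marker mean in the model it was also 0 in all 4. Without a fold threshold it was 2 in males, 1 in females and 3 for NSF against NSM, and with library quality weights 2 in males, 2 for the interaction and 3 for NSF against NSM. DESeq2 gave 2 for the interaction and 2 for NSF against NSM, edgeR 2 for NSF against NSM, scaling by library size and no filter 2 each for the interaction, and the fit of 6 libraries 1 in females. When the 4 libraries above 100 CPM of *Slc17a7* were left out, it was 0 for the interaction, and the 1 called in males was *Htr1f*, higher, in place of *Htr4*. Leaving out 1 library at a time gave 0 to 1 receptors in males (0 without SM2), 0 to 1 in females (1 without SM1, SM2 or SF3), 1 to 3 for the interaction (3 without NSM1 or SM1) and 1 to 3 for NSF against NSM (3 without NSF2).

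The sign turned in some fits. With the 4 libraries left out, the log2 fold change was 0.018 for *Htr4* in males, 0.0399 for *Htr1a* and 0.055 for *Htr1b* in males, 0.32 for *Htr1a* in females, 0.28 for *Htr1a*, -0.039 for *Htr1b* and -0.12 for *Htr1d* in the interaction, and -0.039 for *Htr1a*, -0.11 for *Htr1f* and -0.13 for *Htr2a* in NSF against NSM. With the cortical marker mean in the model it was 0.11 for *Htr1b* in males, 0.074 for *Htr1a* in females, 0.48 for *Htr1a* and -0.13 for *Htr1d* in the interaction, and -0.069 for *Htr1a*, 0.00089 for *Htr1b*, 0.033 for *Htr1d* and -0.017 for *Htr1f* in NSF against NSM. *Htr1a* in males was 0.011 with DESeq2, 0.0062 with DESeq2's size factors, 0.00071 with filterByExpr and 0.0028 with quality weights, and *Htr2a* in NSF against NSM was -0.011 with quality weights. Leaving out 1 library at a time moved *Htr1a* from -0.059 to 0.081 and *Htr2a* from -0.018 to 0.15 in males, *Htr1a* from -0.29 to 0.11, *Htr1f* from -0.071 to 0.099 and *Htr2a* from -0.0069 to 0.23 in females, *Htr1a* from -0.28 to 0.12 and *Htr2a* from -0.065 to 0.16 in the interaction, and *Htr1f* from -0.014 to 0.16 and *Htr2a* from -0.091 to 0.15 in NSF against NSM. The cause of these changes was not tested.

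For the correlations with the cortical marker mean, leaving out the 2 farthest libraries gave -0.76 for *Htr4*, -0.61 for *Htr1b*, -0.018 for *Htr6* and -0.17 for *Htr7*, and deviations from group means gave -0.61 for *Htr4*, -0.65 for *Htr1b*, -0.72 for *Htr1d*, 0.65 for *Htr1a* and -0.10 for *Htr3a*.

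With the replicate number as a block the counts of called receptors were 1, 0, 1 and 1, as without it, and *Htr4* had log2 fold changes of -0.56, 0.39, 0.95 and -0.90. The adjusted p of *Htr4* in NSF against NSM was 0.0234 with the block and 0.0672 without it (limma). Deviations of same-numbered libraries correlated by 0.024, -0.0003 and 0.32 between NSM and SM, where the highest r with another number was 0.18, 0.15 and -0.16. Between NSF and SF they correlated by 0.10, 0.078 and 0.11, each above the highest r with another number (0.001, 0.023 and 0.031). With the block 1727 genes had an adjusted p under 0.05 in males, against 618 without it (limma). What the numbers stand for was not given, so they were not taken as pairs, and a shared batch was not tested. Depth limits *Htr3a* most, with 89 to 150 reads per library.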
